A study of Rattus norvegicus with 8 samples.

Results

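The genes examined here are 10 markers of the thin gas-exchange epithelium of the lung and of the cells that replace it after injury. They were Ager, Hopx, Pdpn, Rtkn2, Clic5, Lmo7 and Akap5, which mark alveolar type 1 cells, and Krt8, Krt18 and Cldn4, which mark transitional epithelial cells. Each was taken by its symbol from a deposited table of 32623 genes, and each symbol had 1 row. The study compared lung tissue of rats (Rattus norvegicus) treated with monocrotaline (MCT, 4 libraries), a plant alkaloid that injures pulmonary vessels and models pulmonary hypertension, with control lung tissue (4 libraries). The labels give no strain, age, sex, dose or time after treatment, and are silent on whether each library is a different animal. The p-values therefore measure the spread between these libraries, which may be technical.

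Alveolar type 1 cells are very flat cells that cover most of the alveolar surface and lie against the capillaries. Alveolar type 2 cells, which make surfactant, divide after injury and turn into type 1 cells through an intermediate state that is known for high Krt8, Krt18 and Cldn4. A lung can therefore lose type 1 transcripts, gain transitional ones, or both, and the 10 genes cover both ends of that path. In whole lung, fewer cells of a type and less RNA per cell cannot be told apart.

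Levels are given in FPKM, fragments scaled to transcript length and library depth by the authors. Differences are log2 fold changes of MCT minus control from edgeR's quasi-likelihood test on the estimated counts, and a gene counts as called where its p, adjusted by Benjamini-Hochberg over all 16715 genes tested, is under 0.05. All 10 genes passed the filter on low counts. The libraries held 39780000 to 66570000 count units, which stand for about 10840000 to 18140000 read pairs. The lung identity of the tissue was clear in its markers, with the surfactant gene Sftpc between 13663 and 26795 FPKM in the 8 libraries. The first library of each group stood apart, with the highest airway scores: the mean log2 CPM of 10 club cell genes was 6.14 in control 1 and 7.37 in MCT 1, against 4.4 to 5.28 in the other 6. For 11 ciliated cell genes it was 4.34 and 4.90, against 2.77 to 3.85.

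In MCT lungs, 4 of the 10 genes were lower, Lmo7, Rtkn2, Krt18 and Clic5, and none was higher. Of all genes tested, 9.45% were called lower and 11% higher. The falls were of 43.0% (Rtkn2), 41.0% (Lmo7), 37.1% (Krt18) and 28.9% (Clic5) by the fitted fold changes. Lung tissue was measured whole, and which cells these falls came from was not tested. The most abundant type 1 genes, Ager, Hopx and Pdpn, did not pass the test, and neither did the transitional genes Krt8 and Cldn4. The median log2 fold change of the 10 was -0.26, against 0.03 over all genes tested. It was negative in 9 of the 10, and in 7958 of all 16715 genes tested. With control 1 and MCT 1 both left out the same 4 genes were called, where 10.2% of all genes tested were lower and 10.8% higher. They were also the 4 called with the ciliated score as a covariate, where 10.5% of all genes were lower and 11.8% higher. With the library number as a block 3 of the 10 were lower, where 7.6% of all genes were lower and 8.59% higher.

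**Figure D1:**
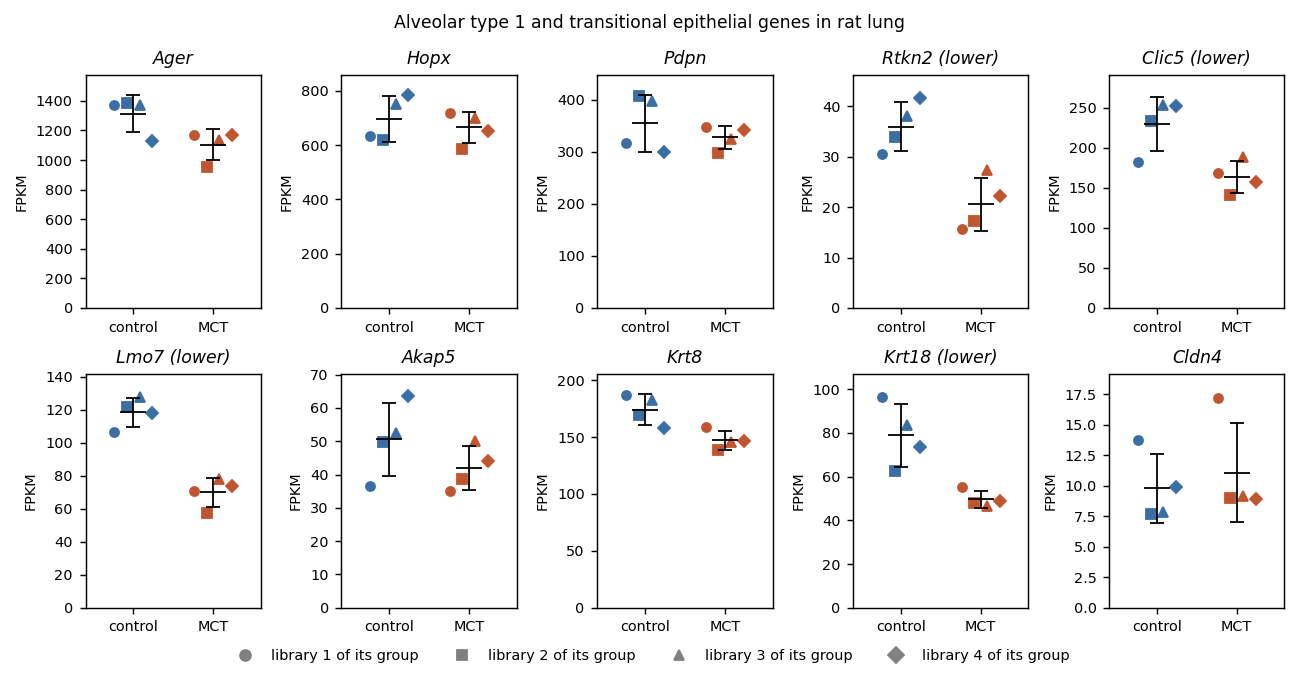
FPKM (vertical axis, from 0) of each of the 10 genes in the 4 control and 4 MCT libraries; each marker shape is a library number within its group, and the black bar and whiskers are the mean and SD. The MCT points of Rtkn2, Lmo7 and Krt18 all lie below the control points, while those of Ager, Hopx, Pdpn, Clic5, Akap5, Krt8 and Cldn4 overlap them.

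Lmo7 encodes a LIM domain protein of epithelial adherens junctions. It stood at 106, 121, 127 and 118 FPKM in control libraries 1 to 4 and at 70.8, 57.7, 77.9 and 73.5 FPKM in MCT libraries 1 to 4. Every MCT library lay below every control library, as was the case for 11.7% of all genes tested, while the reverse held for 13.3%. The means were 118 ± 8.86 FPKM (SD, n = 4) and 69.96 ± 8.70 FPKM. The log2 fold change was -0.76 (SE 0.11), with an edgeR adjusted p of 0.00192, and it stayed between -0.81 and -0.68 with any 1 library left out. The gene lies on chromosome 15 from 86243148 to 86457739 on the plus strand of Rnor_6.0, the build of the deposited table (ENSRNOG00000060775).

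Rtkn2 encodes rhotekin 2, a scaffold protein of the rhotekin family. Its values in control libraries 1 to 4 were 30.5, 33.9, 38.1 and 41.6 FPKM, and in MCT libraries 1 to 4 they were 15.6, 17.2, 27.3 and 22.2 FPKM. The groups did not overlap, although MCT 3 at 27.3 came close to control 1 at 30.5. Rtkn2 had a log2 fold change of -0.81 (SE 0.17, adjusted p 0.01 by edgeR). Of the 16715 genes tested, 5.53% had a more negative value than Rtkn2. The gene (ENSRNOG00000000636) lies on chromosome 20 from 21932878 to 22004279, minus strand.

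Clic5 encodes a chloride intracellular channel protein that links the plasma membrane to ezrin and radixin. The control libraries 1 to 4 held 182, 233, 254 and 252 FPKM and the MCT libraries 1 to 4 held 168, 141, 188 and 158 FPKM. Control 1 lay below MCT 3, so the groups overlapped. Clic5 had a log2 fold change of -0.49 (SE 0.13, edgeR adjusted p 0.0278). This call was the weakest of the 4: it was lost without control 2, control 3, control 4, MCT 2 or MCT 4, where the edgeR adjusted p was 0.0599 to 0.0786 and the log2 fold change -0.48 to -0.43. It was also lost with the library number as a block (-0.49, adjusted p 0.0564) and with the pan-epithelial score as a covariate (-0.43, adjusted p 0.157). Clic5 (ENSRNOG00000047218) lies on chromosome 9 from 19121677 to 19372673, minus strand.

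Krt18 encodes a type I keratin of simple epithelia. It stood at 96.4, 62.5, 83.5 and 73.5 FPKM in control libraries 1 to 4 and at 55.2, 47.9, 46.5 and 48.9 FPKM in MCT libraries 1 to 4. All MCT libraries were below all control libraries, and the MCT values were packed more tightly (SD 3.84 against 14.4). For Krt18 the log2 fold change was -0.67 (SE 0.13, edgeR adjusted p 0.00702), and -0.56 without control 1, the library with the highest level. Krt18 was measured by 812 to 2028 read pairs per library.

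The 3 abundant type 1 genes had small differences. Ager, the receptor for advanced glycation end products and a defining type 1 gene, was number 23 of the tested genes by control level. It was at 1370, 1384, 1372 and 1131 FPKM in control libraries 1 to 4 and at 1169, 950, 1134 and 1167 FPKM in MCT libraries 1 to 4. Control 4 lay below 3 of the MCT libraries. The log2 fold change was -0.25 (SE 0.11, 95% interval -0.51 to 0.00, edgeR adjusted p 0.151). The fitted values of Lmo7 (-0.76) and Rtkn2 (-0.81) lie outside that interval, but the 95% interval of Rtkn2 (-1.19 to -0.43) overlaps it. The difference between these genes was not tested.

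Hopx, a homeodomain protein without DNA binding of its own, was at 633, 617, 750 and 786 FPKM in control libraries 1 to 4 and at 718, 587, 700 and 653 FPKM in MCT libraries 1 to 4. The groups overlapped along most of their range, and the log2 fold change was -0.07 with a 95% interval of -0.30 to 0.17 (edgeR adjusted p 0.707). Hopx is also used by cytotoxic lymphocytes and cardiac myocytes. Of 8 cytotoxic lymphocyte genes, 5 were lower (62.5%) and none higher, against 9.45% and 11% of all genes tested. Their mean log2 CPM was 2.21 to 2.86 in MCT against 3.23 to 3.84 in control. For 7 cardiac genes, of which 1 was higher (14.3%), it was 1.65 to 3.19 against 1.89 to 2.59. The part of these cells in the Hopx values was not tested.

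Pdpn encodes podoplanin, a mucin-type membrane protein that gave type 1 cells one of their classic names, T1-alpha. The control libraries 1 to 4 held 317, 407, 397 and 300 FPKM and the MCT libraries 1 to 4 held 347, 297, 324 and 342 FPKM. All MCT values but MCT 2 at 297 fell inside the control range, and the log2 fold change was -0.12 (95% interval -0.41 to 0.17, edgeR adjusted p 0.562). Lymphatic endothelium also makes podoplanin. Of 7 lymphatic genes tested, 3 were higher (42.9%) and 1 lower (14.3%), against 11% and 9.45% of all genes tested. Their mean log2 CPM was 4.81 to 5.40 in MCT against 4.03 to 4.69 in control. Among them the chemokine Ccl21 went from 64.3 ± 12.0 to 438 ± 180 FPKM. Prox1, the defining transcription factor of that endothelium, went from 0.138 ± 0.0746 to 0.518 ± 0.205 FPKM. Prox1 was measured by only 5.18 to 66.2 read pairs per library. Lyve1, a hyaluronan receptor of lymphatic vessels that other lung cells also carry, was the member that fell (-1.70, SE 0.13). The part of lymphatic vessels in the Pdpn values was not tested.

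Akap5 encodes an anchor for protein kinase A. It was at 36.6, 49.8, 52.4 and 63.5 FPKM in control libraries 1 to 4 and at 35.04, 38.8, 50.1 and 44.2 FPKM in MCT libraries 1 to 4. Library 1 was the lowest of its group in both arms. Its log2 fold change was -0.27 (SE 0.16, edgeR adjusted p 0.284), and -0.33 with control 1 and MCT 1 left out (adjusted p 0.0873, and 0.0635 to 0.570 over the 21 alternatives).

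Krt8, a type II keratin that pairs with Krt18, stood at 187, 170, 182 and 158 FPKM in control libraries 1 to 4. In MCT libraries 1 to 4 it stood at 159, 139, 145 and 146 FPKM. The groups touched only at control 4 and MCT 1. The log2 fold change was -0.24 (SE 0.09, 95% interval -0.44 to -0.05) and its edgeR adjusted p was 0.0788. The adjusted p was 0.0448 without control 4, 0.0452 without MCT 1 and 0.0187 by DESeq2, and over the 21 alternatives it was 0.0187 to 0.496. DESeq2 thus called 5 of the 10 lower, where it called 13.1% of all genes lower and 13.6% higher. In none of the 22 fits run did Krt8 have a positive value.

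Cldn4 encodes a tight junction claudin, and it was the least abundant of the 10 in 7 of the 8 libraries. The control libraries 1 to 4 were at 13.7, 7.66, 7.87 and 9.88 FPKM and the MCT libraries 1 to 4 at 17.2, 8.98, 9.19 and 8.95 FPKM. Library 1 was the highest in both groups, and the other 3 MCT libraries lay within the control range. The log2 fold change was 0.18 (SE 0.27, 95% interval -0.42 to 0.79, edgeR adjusted p 0.690), and -0.12 without MCT 1. Cldn4 was measured by only 162 to 380 read pairs per library. Claudins of this kind are also made in the airways, and the libraries with the highest Cldn4 were those with the highest club and ciliated scores. Krt8 and Krt18 were also at the highest of their group in control 1 and in MCT 1. The part of airway cells in the values of Cldn4, Krt8 and Krt18 was not tested. With the ciliated score as a covariate the log2 fold change of Cldn4 was 0.13 (edgeR adjusted p 0.514). With the pan-epithelial score it was 0.55 (adjusted p 0.219). Over the 21 alternatives the adjusted p was 0.219 to 0.893.

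**Figure D2:**
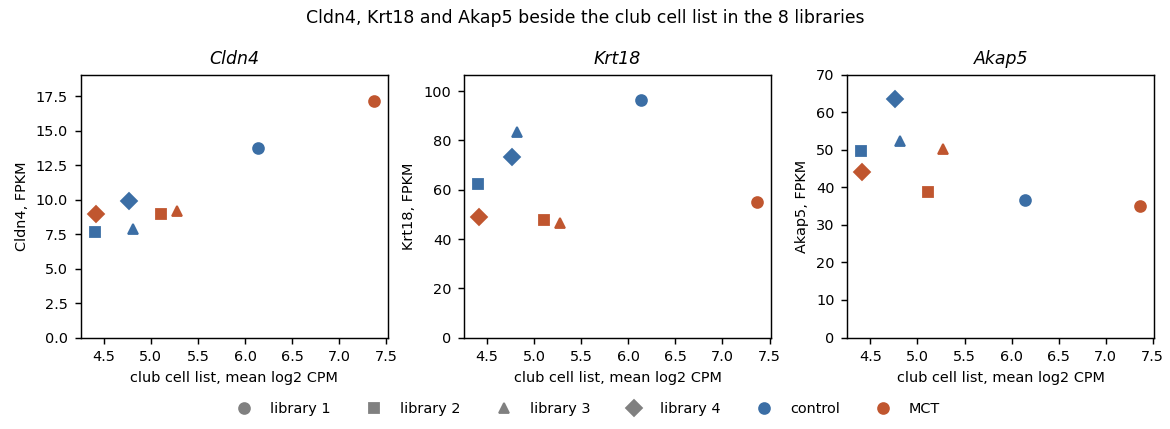
FPKM of Cldn4, Krt18 and Akap5 (vertical axes, from 0) against the mean log2 CPM of 10 club cell genes (horizontal axes) in each library, with color for the group and shape for the library number. Control 1 at 6.14 and MCT 1 at 7.37 stand to the right of the other 6 libraries, where Cldn4 is at its highest (13.7 and 17.2 FPKM) and Akap5 at its lowest (36.6 and 35.04 FPKM). Krt18 is there at the highest of each group (96.4 and 55.2 FPKM).

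Keratins 8 and 18 pair in the filaments of simple epithelia, so their ratio was compared in each library, a choice made after their values were seen. The ratio of Krt8 to Krt18 in FPKM was 1.94, 2.71, 2.19 and 2.15 in control libraries 1 to 4. It was 2.88, 2.90, 3.13 and 2.99 in MCT libraries 1 to 4. The means were 2.25 ± 0.329 (SD, n = 4) and 2.97 ± 0.115, and every MCT library was above every control library. Since the ratio was picked for this pattern, it is given as a description with no test. The other simple keratins did not pass the test: Krt7 was at 275 ± 20.1 FPKM in control and 273 ± 42.3 FPKM in MCT, and Krt19 at 448 ± 53.6 and 391 ± 11.5 FPKM (edgeR adjusted p 0.956 and 0.215). The ratio of Krt7 to Krt18 did not overlap, at 2.59 to 4.52 in control and 4.57 to 6.35 in MCT, while that of Krt19 to Krt18 overlapped (4.34 to 7.82 and 7.04 to 8.33).

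**Figure D3:**
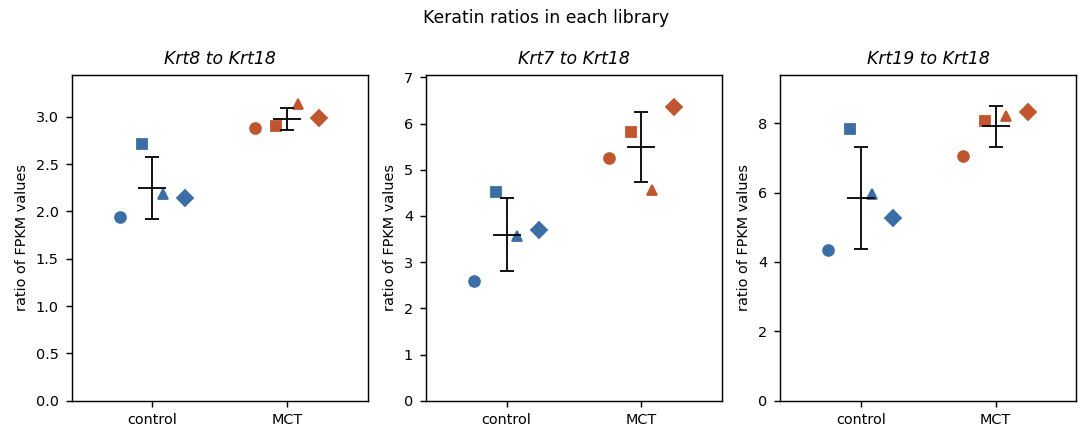
Ratio of the FPKM values of Krt8, Krt7 and Krt19 to that of Krt18 (vertical axes, from 0) in each control and MCT library, with the mean and SD in black. For Krt8 the 4 MCT libraries lie at 2.88 to 3.13, above the control libraries at 1.94 to 2.71.

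The pair also share a locus. On Rnor_6.0, Krt8 (ENSRNOG00000009779) runs on the minus strand of chromosome 7 from 143596511 to 143603803, and Krt18 (ENSRNOG00000047393) on the plus strand from 143629455 to 143633131. Their starts thus face away from each other with 25651 bases between them, a stretch in which the table lists 1 other gene. The other members are on different chromosomes, apart from Ager (ENSRNOG00000000439, 4363152 to 4366079) and Rtkn2, both on chromosome 20. Hopx lies on chromosome 14 (33354807 to 33362551, plus strand) and Pdpn on chromosome 5 (161947137 to 161981441, minus strand). Akap5 lies on chromosome 6 (99356509 to 99361909, plus strand) and Cldn4 on chromosome 12 (24761210 to 24763005, plus strand).

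The 250 bases before the start of the 4 genes that fell, and of Krt8 for comparison with its partner, are shown here from RefSeq (build GRCr8, not the build of the table). They are written 5′ to 3′ on the strand of the gene. Capitals mark GGGCGG or its reverse complement, known as a GC box, in Lmo7, Rtkn2, Clic5 and Krt18. In Krt8 they mark TATAAA on both strands, whose matches overlap.
Lmo7 (chr15:84981532-84981781, plus strand): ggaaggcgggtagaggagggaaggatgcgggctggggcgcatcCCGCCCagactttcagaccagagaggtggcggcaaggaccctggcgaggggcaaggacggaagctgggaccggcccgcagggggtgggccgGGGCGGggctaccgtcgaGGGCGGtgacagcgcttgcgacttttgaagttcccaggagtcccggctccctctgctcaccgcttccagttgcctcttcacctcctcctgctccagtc
Rtkn2 (chr20:20608863-20609112, minus strand): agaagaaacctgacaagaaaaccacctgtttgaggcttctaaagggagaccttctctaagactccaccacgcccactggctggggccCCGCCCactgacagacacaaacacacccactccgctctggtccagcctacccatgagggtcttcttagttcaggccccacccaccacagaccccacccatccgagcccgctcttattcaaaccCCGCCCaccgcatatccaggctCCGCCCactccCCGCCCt
Clic5 (chr9:24310965-24311214, minus strand): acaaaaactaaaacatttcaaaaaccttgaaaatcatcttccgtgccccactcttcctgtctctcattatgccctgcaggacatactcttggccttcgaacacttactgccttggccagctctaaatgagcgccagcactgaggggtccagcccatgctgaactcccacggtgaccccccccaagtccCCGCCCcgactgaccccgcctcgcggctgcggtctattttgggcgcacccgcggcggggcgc
Krt18 (chr7:135035918-135036167, plus strand): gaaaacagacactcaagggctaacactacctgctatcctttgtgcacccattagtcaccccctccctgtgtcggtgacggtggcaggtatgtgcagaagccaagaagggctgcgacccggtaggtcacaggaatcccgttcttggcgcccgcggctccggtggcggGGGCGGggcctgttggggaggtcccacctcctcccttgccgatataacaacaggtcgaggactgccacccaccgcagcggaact
Krt8 (chr7:135010340-135010589, minus strand): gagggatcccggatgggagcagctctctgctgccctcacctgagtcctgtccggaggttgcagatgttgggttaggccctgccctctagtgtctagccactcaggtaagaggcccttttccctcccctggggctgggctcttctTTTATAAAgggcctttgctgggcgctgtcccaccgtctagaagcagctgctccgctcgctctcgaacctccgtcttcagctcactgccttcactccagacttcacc

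RefSeq promoters were found for 9 of the 10 genes, all but Cldn4. The GC box was in 6 of these 9 windows on either strand, against 30.5% of 33469 promoter windows of the same length. The 9 windows had 51.6% (Pdpn) to 68.4% (Lmo7) G and C bases, against a median of 51.2% over all windows. The comparison of GC boxes takes no account of this. Rtkn2 held 4 copies, at -163, -40, -18 and -7 from the start, and Lmo7 held 3, at -207, -116 and -98. Pdpn and Akap5, which were not called, also held 3 each. Krt18 held 1, at -84, and Clic5 held 1, at -62, while Krt8, Hopx and Ager held none. The letters TATAAA were in 12.9% of all windows and, of the 9, only in Krt8, where the matches began at -106 and -104. Type 1 cell genes are known to be controlled by NKX2-1 and by YAP and TAZ acting through TEAD factors. Neither GGAATG, the core bound by TEAD factors (12.1% of all windows), nor CACTTG, one bound by NKX2-1 (11.7%), was in any of the 9 windows on either strand, and the AP-1 motif TGANTCA (6.3%) was in none. CACTTG is also an E-box (CANNTG). These counts describe the letters of short windows only.

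Of 18 other alveolar type 1 genes tested, 15 had a negative log2 fold change, and the median of the 18 was -0.16. Among all 16715 genes tested, 7958 were negative. By the test, 2 of the 18 were lower and none higher. The share lower, 11.1%, was near the 9.45% of all genes tested. The 2 were Col4a3, a basement membrane collagen chain (24.1 ± 4.32 FPKM in control, 14.1 ± 2.61 in MCT, edgeR adjusted p 0.0102), and the caveolar gene Cav2 (162 ± 13.3 and 119 ± 15.1 FPKM, adjusted p 0.0210). Cav2 is also an endothelial gene. Of 9 endothelial genes tested, 4 were lower (44.4%) and 1 higher (11.1%), against 9.45% and 11% of all genes tested. Their mean log2 CPM was 7.10 to 7.43 in MCT against 7.93 to 8.12 in control. The water channel Aqp5 had a log2 fold change of -0.06 (95% interval -0.33 to 0.22) and the growth factor binding protein Igfbp2, a mark of mature type 1 cells, 0.42 (95% interval 0.01 to 0.83, edgeR adjusted p 0.138). The type 1 markers were uneven in their fitted values: Lmo7 and Rtkn2 fell by 0.76 and 0.81 on the log2 scale. The intervals of Hopx, Pdpn and Aqp5 do not reach either value. Differences between genes were not tested.

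Of 23 other transitional genes tested, 8 were higher and none lower, a share of 34.8% against 11% of all genes tested, and their median log2 fold change was 0.53. Gdf15, a stress cytokine, went from 9.01 ± 2.62 to 33.8 ± 9.90 FPKM (log2 fold change 1.9, SE 0.25, edgeR adjusted p 0.00133). Mdm2, the ubiquitin ligase of p53, went from 17.0 ± 0.882 to 25 ± 1.42 FPKM (0.55, SE 0.07). The other 6, named after their values were seen, were Fn1 (fibronectin, 1.63), Cdkn1a (the cell cycle inhibitor p21, 1.18), Ccn2 (0.98), Lgals3 (galectin 3, 0.69), Anxa1 (0.53) and Tagln2 (0.29). These 8 are transcribed in many cell types, fibroblasts and macrophages among them. Among the 15 not called were Krt19, the integrin chain Itgb6 (-0.08, SE 0.18) and the epithelial gene Sfn (0.54, SE 0.32), the latter pair also named after their values were seen. The value of Sfn was as large as that of the called Anxa1. Of 7 fibroblast genes, 3 were higher (42.9%) and 1 lower (14.3%), against 11% and 9.45% of all genes tested. Their mean log2 CPM was 6.07 to 6.31 in MCT against 5.85 to 6.06 in control. Collagen gene Col1a1 was at 53.0 ± 11.9 FPKM in control and 173 ± 25.01 in MCT, and the methyltransferase gene Inmt at 43.2 ± 17.7 and 13.7 ± 1.72 FPKM. The part of fibroblasts in the values of the transitional list was not tested.

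**Figure D4:**
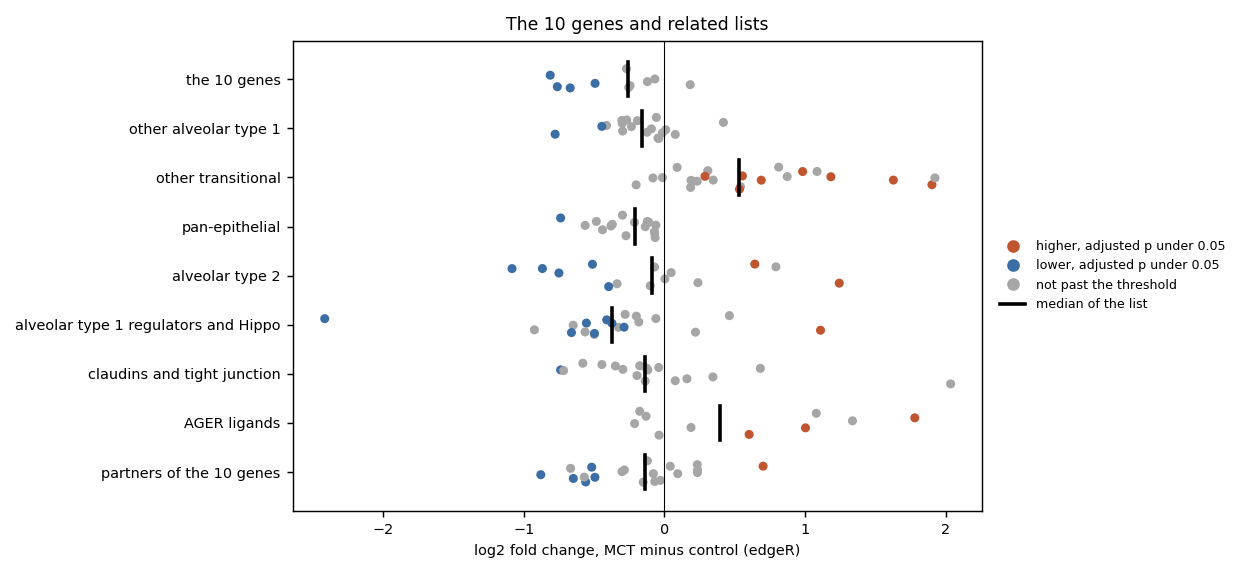
Log2 fold change of MCT minus control (horizontal axis) for each tested gene of the 10 and of 8 related lists, with called genes in orange (higher) and blue (lower), other genes in grey and the median of each list as a black bar. The 10 genes have 4 blue points and no orange one and a median of -0.26, while the other transitional genes have 8 orange points and a median of 0.53.

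Genes shared by most epithelia were examined beside the 10. All 17 pan-epithelial genes tested had a negative log2 fold change, with a median of -0.21. Of all 16715 genes tested, 7958 were negative. Only Cldn3, a claudin, was called (79.5 ± 3.09 FPKM in control, 47.7 ± 16.9 in MCT, edgeR adjusted p 0.0432). The share lower was 5.88% and none was higher, against 9.45% and 11% of all genes tested. The adhesion molecule Epcam was at 103 ± 3.56 and 85.3 ± 18.7 FPKM, and E-cadherin (Cdh1) at 69.4 ± 1.81 and 66.1 ± 9.17 FPKM. The mean log2 CPM of the 17 genes was 6.33 to 6.57 in control and 6.54, 6.09, 6.18 and 5.99 in MCT libraries 1 to 4. With that score as a covariate in the fit, Rtkn2 (-1.04, edgeR adjusted p 0.0221) and Lmo7 (-0.71, adjusted p 0.0226) were called lower. Krt18 (-0.53, adjusted p 0.0721) and Clic5 (-0.43, adjusted p 0.157) were no longer called. In that fit 5.85% of all genes tested were lower and 5.94% higher. Over the 21 alternatives the adjusted p was 5.99e-05 to 0.0335 for Rtkn2, 3.01e-10 to 0.0226 for Lmo7, 2.09e-05 to 0.0721 for Krt18 and 0.00142 to 0.157 for Clic5. In the score itself only MCT 1 lay within the control range, so the fit with this covariate separates group and score poorly.

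**Figure D5:**
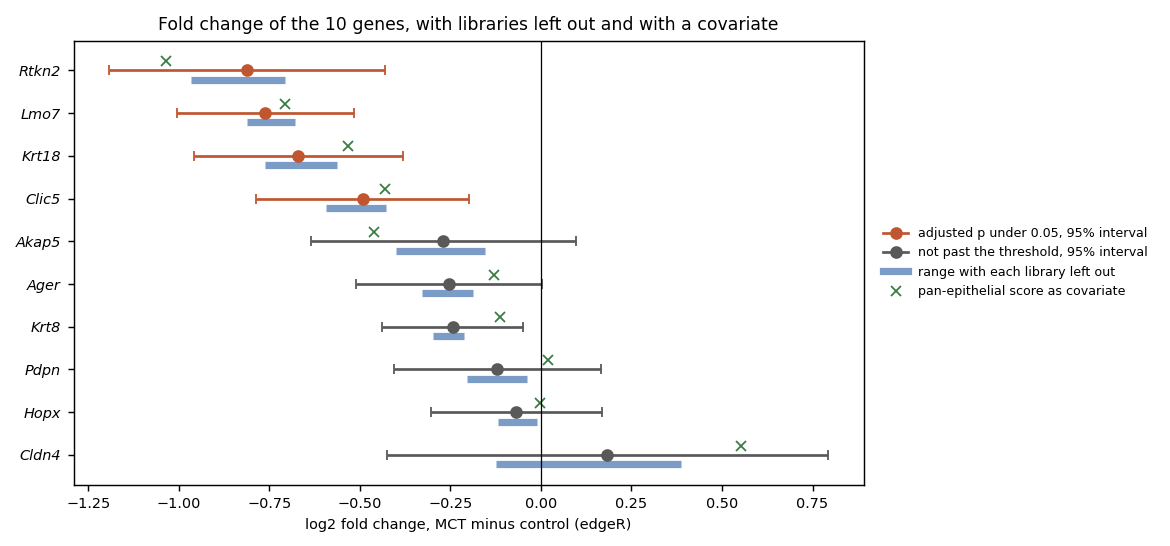
Log2 fold change of MCT minus control (horizontal axis) for each of the 10 genes, as points with 95% intervals (orange where the adjusted p was under 0.05), blue bars for the range with each library left out, and green crosses for the fit with the pan-epithelial score as a covariate. Rtkn2 at -0.81 and Lmo7 at -0.76 lie farthest to the left, and the blue bar of Cldn4 crosses 0 (-0.12 to 0.39).

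Among claudins and other tight junction genes, 1 of 17 tested was lower, Cldn3, and none higher. That share lower was 5.88%, against 9.45% of all genes tested. Cldn18, the main claudin of alveolar epithelium, was at 435 ± 60.7 FPKM in control and 460 ± 25.1 in MCT (log2 fold change 0.08, 95% interval -0.18 to 0.33). Cldn7 was at 44.5 ± 13.1 and 40.5 ± 9.68 FPKM (edgeR adjusted p 0.728). In the list of other keratins and basal cell genes, 1 of 10 was lower, Krt4 (1.84 ± 0.438 to 0.480 ± 0.313 FPKM). That share, 10%, was near the 9.45% of all genes tested.

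Of 19 regulators of the type 1 fate and of the Hippo pathway tested, 7 were lower and 1 higher, a share lower of 36.8% against 9.45% of all genes tested, with a median of -0.37. Stk4, a Hippo kinase, went from 20.2 ± 2.06 to 12.8 ± 0.448 FPKM (log2 fold change -0.66, SE 0.08, edgeR adjusted p 0.00115). Sox9, a transcription factor of distal airway and cartilage progenitors, went from 2.98 ± 1.05 to 0.550 ± 0.204 FPKM. The other 5, named after their values were seen, were Foxa2 (-0.55), Tead4 (-0.50), Gata6 (-0.41), Amotl2 (-0.37) and Lats1 (-0.29). Ankrd1, which muscle cells also express, was the one higher (1.11, SE 0.26). Nkx2-1, the lineage factor of lung epithelium, was at 121 ± 20.3 FPKM in control and 85.4 ± 25.5 in MCT (log2 fold change -0.50, SE 0.21, edgeR adjusted p 0.135). The coactivators Yap1 (-0.33, SE 0.12, adjusted p 0.0852) and Wwtr1, which encodes TAZ (-0.20, SE 0.15, adjusted p 0.395), did not pass.

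Of 10 ligands of the receptor that Ager encodes, 3 were higher and none lower, against 11% of all genes tested. S100a4 went from 102 ± 12.2 to 204 ± 10.5 FPKM (log2 fold change 1.0, SE 0.09, edgeR adjusted p 0.000378) and C1qa, a complement subunit of macrophages, from 51.1 ± 14.02 to 176 ± 45.5 FPKM. The remaining one was the lipoprotein gene Apoe (0.60, SE 0.13). The nuclear protein Hmgb1, a classic ligand, was not called by edgeR, at 20.7 ± 1.34 and 20.1 ± 2.78 FPKM. Apoe and Hmgb1 were named after their values were seen. Ager itself was not called, as given above.

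Genes whose proteins bind or resemble those of the 10 were lower in 5 of 20 cases and higher in 1. The shares were 25% lower and 5% higher, against 9.45% and 11% of all genes tested. Radixin (Rdx, -0.65, SE 0.17), one of the Clic5 partners, and afadin (Afdn, -0.56, SE 0.09), a partner of Lmo7 at junctions, were among the lower genes. The paralogs of Clic5 split: Clic3 was lower (-0.49, SE 0.13), Clic1 rose from 128 ± 4.90 to 208 ± 24.2 FPKM, and Clic4 (-0.12, 95% interval -0.51 to 0.27) was not called. Ezrin (Ezr) was at 142 ± 19.5 and 128 ± 14.4 FPKM (edgeR adjusted p 0.458). Akap12, another kinase anchor, was also lower (-0.52). Rdx, Afdn, Clic3 and Akap12 were named after their values were seen.

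Genes that mark alveolar type 2 cells, the source of new type 1 cells, were called in both directions. The part of other cells in their values was not tested. Of 14 tested, 5 were lower (35.7%) and 2 higher (14.3%), against 9.45% and 11% of all genes tested. Sftpc fell from 21541 ± 3575 to 15164 ± 1421 FPKM (log2 fold change -0.51, SE 0.15, edgeR adjusted p 0.0387), and Etv5, a transcription factor that maintains type 2 cells, from 33.1 ± 3.55 to 18.2 ± 2.53 FPKM. The phosphate carrier Slc34a2 had a log2 fold change of -1.08 (SE 0.17). The 2 higher genes, named after their values were seen, were the fatty acid binding protein gene Fabp5 (105 ± 35.7 to 249 ± 36.5 FPKM, log2 fold change 1.24, SE 0.25) and the lamellar body gene Lamp3 (128 ± 22.2 to 201 ± 32.2 FPKM, 0.64, SE 0.15).

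Mesothelium also makes keratins 8 and 18. None of 5 mesothelial genes tested was called by edgeR, and their mean log2 CPM was 3.57 to 5.99 in MCT and 3.44 to 5.46 in control. None of the 11 ciliated genes was called by edgeR. Of these, 9 had a positive log2 fold change and 2 a negative one, with a median of 0.32. The most abundant, Tppp3, was 1 of the 2 negative ones (612 ± 81.2 FPKM in control, 468 ± 133 in MCT). Of 10 club genes, Cyp2b1 and Cyp4b1 were lower (-0.87 and -0.69) and none was higher. The share lower was 20%, against 9.45% of all genes tested.

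The genes with the profile nearest to that of Ager over the 8 libraries were Arhgap1, Letmd1, Acd, Arl4a and Strn4. Likeness was the root-mean-square difference of log2 CPM, each gene centred on its mean, among 7305 genes with a mean of at least 10 FPKM. It was 0.05 for Arhgap1 and 0.06 for Strn4, against 0.19 for the spread of Ager around its own mean. For Krt8 the nearest were Niban2, Stk11, Dhx30, Traf3ip2 and Fbxw5, at 0.03 to 0.05 against a spread of 0.15. No other member of the group studied here was among them.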

How the data were processed

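RNA of rat lung was sequenced in 4 MCT and 4 control libraries, after selection with oligo(dT) beads per the labels' protocols. The submitters' processing notes name cutadapt 1.9, HISAT2 2.0.4, StringTie 1.3.4d, edgeR and the build Rnor_6.0, without order or settings. The deposited table gives FPKM and an estimated count per gene and library, per the file headers. The estimated counts are whole numbers, and 1 read pair was worth about 3.67 units, from the spacing of values up to 60. All value columns matched a library.

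Computed here were edgeR's quasi-likelihood test (4.0.16, R 4.3.3, filterByExpr with a minimum count of 10, TMM, robust) on all 8 libraries, with no other covariate, and FPKM means ± SD. Standard errors come from the quasi-likelihood F. The fit was also run on counts simulated from the means and dispersions of these libraries. Nothing reported here draws on that run. Alternatives were limma 3.58.1 on log2(FPKM + 0.5) and with 0.1 and 1, DESeq2 1.42.0, 2 other scalings, 2 other filters, counts divided by 3.67, the replicate number as a block, left-out libraries and ciliated or pan-epithelial covariates. List scores are mean log2 CPM (prior count 2).

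The 10 genes and the lists were chosen with earlier results of these data known. Named genes were the 10, the 2 called genes of smallest p per list, or the most abundant one where none was called, partner genes, and the 5 nearest profiles to Ager and Krt8. The genes that this rule picks from the endothelial, cytotoxic lymphocyte, cardiac and mesothelial lists are not named. Other names were chosen after their values were seen. Nothing read here states how paralogs or strands were counted. A partner gene is not reported here.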

Additional observations from a re-analysis of the deposited data

Results flagged for a closer look

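Of 106 sets of 4 values (a gene, or the keratin ratio, in 1 group), 9 had a single value well away from its fellows, and chance alone does this in about 1 set of 20. The value given is the gap to the nearest library as a share of the range. For Ager it was 0.947 in control (control 4 at 1131 FPKM, the others 1370 to 1384) and 0.84 in MCT (MCT 2 at 949.6, the others 1134 to 1169). For Cldn4 it was 0.971 in MCT (MCT 1 at 17.2 FPKM, the others 8.95 to 9.19), and for Cldn7 0.8291 (MCT 1 at 54.8, the others 33.3 to 37.0). MCT 1 was also the library with the highest club score. For Col4a3 it was 0.834 (control 1 at 17.7, the others 25.3 to 26.9) and for Gdf15 0.913 (control 1 at 12.9, the others 7.50 to 7.97). For Cav2 it was 0.945 (MCT 2 at 96.2, the others 125 to 127), for S100a4 0.919 (control 3 at 120, the others 94.6 to 96.6) and for Cdh1 0.925 (control 2 at 72.1, the others 68.4 to 68.7).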

How the results depend on the processing

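Rtkn2 and Lmo7 were called lower in all 21 alternatives, Krt18 in 20, Clic5 in 14 and Krt8 in 3. Ager, Hopx, Pdpn, Akap5 and Cldn4 were called in none, and no alternative gave a higher member. The 4 lower members became 2 with the pan-epithelial covariate and 3 to 5 with each library left out. Genes called numbered 3424, 1971 with that covariate and 2166 (without MCT 2) to 3676 (without MCT 1) with each library left out. The sign turned for Pdpn with the pan-epithelial covariate (0.0203) and for Cldn4 without MCT 1 (-0.12, and -0.12 to 0.39 with each library left out). For these reversals the cause was not tested. With the replicate number as a block, 2707 genes and 3 members were called, and Clic5 was not (adjusted p 0.0564 by edgeR). The numbers 1 to 4 paired no samples by the labels, and same-numbered libraries deviated with correlations of 0.11, 0.02, -0.02 and -0.08. The Krt8 to Krt18 ratio difference of 0.728 was 0.627 to 0.884 with each library left out and 0.659 without control 1 and MCT 1. Cldn4 had the fewest read pairs of the 10 genes, 162 to 380 per library. Its SE was 0.27 in the main fit and 0.13 without control 1 and MCT 1.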

Other observations

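The order of the 10 genes by FPKM was nearly fixed across libraries. Ager, Hopx and Pdpn were in that order at the top in all 8, and Lmo7 held the same place in all 8. Krt8 stood above Clic5 only in control 1, and Akap5 above Krt18 only in MCT 3. Cldn4 stood above Rtkn2 only in MCT 1, where Cldn4 was at its highest and Rtkn2 at its lowest.

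Relative to Ager in the same library, Lmo7 was lower in every MCT library (0.0605 to 0.0687) than in every control library (0.0776 to 0.104). The ratios of Hopx, Pdpn, Rtkn2, Clic5 and Akap5 to Ager overlapped between the groups. The ratio of Ager to Sftpc also overlapped, at 0.0516 to 0.0677 in control and 0.0557 to 0.0854 in MCT. These ratios are given without a test.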
